A study of Mus musculus with 6 samples.

Results

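The genes described here belong to the proteasome: the immunoproteasome catalytic subunits Psmb8, Psmb9 and Psmb10, the constitutive catalytic subunits Psmb5, Psmb6 and Psmb7, and the genes of the PA28 activators, Psme1, Psme2 and Psme3. A gene was taken where a probe set carried its symbol alone, and the brightest such probe set, by its mean of 6 arrays, stood for it. This gave 8 of the 9 genes, among 18193 genes in all. The probe set that carries Psme2 also carries the symbol of its copy Psme2b, so Psme2 had no value of its own.

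Transcripts were hybridised to Affymetrix 3' arrays from cells of skin tumours taken from 3 wild-type animals (WT) and from 3 deficient for E-FABP (EKO), the epidermal fatty acid binding protein encoded by Fabp5. Both groups received the 2-stage carcinogenesis regimen of DMBA, which initiates tumours by mutation, followed by the promoting phorbol ester TPA, over 5 months, so no untreated skin enters the comparison. The design text speaks of digested tumours and the sample labels of keratinocytes, and neither gives a strain, a sex, an age or a tissue restriction of the deficiency. The comparison of EKO with WT asks which transcripts differ between tumours with and without E-FABP.

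The proteasome is the protease that cuts ubiquitin-tagged proteins into peptides. Its 20S core holds the catalytic subunits, and in cells exposed to interferon gamma, and constitutively in many leukocytes, Psmb9 takes the place of Psmb6, Psmb10 that of Psmb7 and Psmb8 that of Psmb5. The resulting immunoproteasome favours peptides that fit MHC class I molecules. PA28 alpha and beta, encoded by Psme1 and Psme2, form a cap that interferon gamma also induces, while PA28 gamma, encoded by Psme3, caps proteasomes of the nucleus. In the genome order of the RefSeq table, Psmb9, Tap1, Psmb8 and Tap2 follow each other without another gene between them, Tap1 and Tap2 encoding the transporter that carries the peptides into the endoplasmic reticulum.

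Promoter stretches are shown for the members whose window held a letter match to a motif of interferon-responsive or of proteasome genes, and for Psmb9, which shares its upstream region with Tap1. They come from RefSeq windows of build GRCm38.p6, reaching from upstream of each gene's start to just after it. Both strands were searched for the interferon-stimulated response element (GAAA and GAAA with any 2 bases between them), the gamma-activated site TTCNNNGAA, the core of the antioxidant response element TGACNNNGC, which the proteasome gene activator Nfe2l1 can bind, and the GC box GGGCGG. Of 32851 windows, 3.44% held the first, 8.3% the second, 12.4% the third and 35.7% the last, and the motifs can overlap. Capitals mark the match, and each sequence runs 5′ to 3′ on the strand given with it. They stand at chr17:34198075-34198134 (plus strand) for Psmb8, chr14:55578494-55578523 (plus) for Psme1, chr14:54617996-54618065 (minus) for Psmb5 and chr11:70525287-70525356 (plus) for Psmb6. The stretch between the starts of Psmb9 and Tap1 is chr17:34187331-34187555, printed on the plus strand, which is the strand of Tap1.
Psmb8, gamma-activated site: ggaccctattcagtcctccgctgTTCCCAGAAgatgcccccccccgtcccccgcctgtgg
Psme1, interferon-stimulated response element: gagctgtgcTTTCGCTTTCccttcccgctg
Psmb5, antioxidant response element core: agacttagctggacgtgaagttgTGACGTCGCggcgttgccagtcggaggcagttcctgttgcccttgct
Psmb6, antioxidant response element core: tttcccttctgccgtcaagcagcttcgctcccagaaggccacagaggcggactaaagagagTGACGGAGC
Psmb9 and Tap1, GC box: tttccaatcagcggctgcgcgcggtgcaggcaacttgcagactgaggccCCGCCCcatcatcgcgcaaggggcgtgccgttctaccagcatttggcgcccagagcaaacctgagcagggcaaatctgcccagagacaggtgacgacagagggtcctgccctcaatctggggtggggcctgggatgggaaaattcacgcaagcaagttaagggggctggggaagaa

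The match of Psmb8 began at position -97 from the gene's start, that of Psmb5 at -47 and that of Psmb6 at -9, while that of Psme1 began at 10, within the transcript. The windows of Psmb10 and Psme3 held none of these letters, the other matches were GC boxes in the windows of Psmb6, Psme1 and Psme2, and Psmb7 is only named. A match is a description of letters and not of binding.

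The 6 arrays had nearly equal medians of 5.40 to 5.43 on the log2 scale, and pairs of arrays correlated across probe sets with r from 0.987 to 0.994. Fabp5 fell by 6.69 (SE 0.108), with means of 14.85 ± 0.073 for WT and 8.16 ± 0.166 for EKO (± SD, n = 3 each), and was the 1 gene of 18193 past the threshold (limma, adjusted p = 1.04e-06). By this gene no array went against its label. The mean of 10 markers of the labelled cell type, keratinocytes, lay between 13.03 and 13.17 in WT and between 12.99 and 13.23 in EKO arrays, above the upper quartile of each array (at most 7.56), and none of the 10 was dim. Values of different probe sets do not compare transcript levels, so only differences between arrays are read.

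The immunoproteasome subunits Psmb8 and Psmb9 had lower means in EKO tumours, with no overlap between the groups, but neither passed the threshold. Psmb8, the subunit with chymotrypsin-like activity, had log2 values of 9.73, 9.41 and 9.19 in WT replicates 1, 2 and 3 and of 8.75, 8.72 and 8.42 in EKO replicates 1, 2 and 3. The lowest WT value lay 0.44 above the highest EKO value. The difference was -0.81 on the log2 scale (SE 0.159, 95% confidence interval -1.19 to -0.44), a mean signal 1.76-fold higher in WT (limma adjusted p = 0.546, unadjusted p = 0.00134). As tumour cells were measured in bulk, fewer cells of a type and less RNA per cell cannot be told apart.

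Psmb9 behaved in the same way. It read 9.03, 8.60 and 8.65 in the WT replicates and 8.15, 8.07 and 7.84 in the EKO replicates, the groups again standing apart by 0.45. Its difference was -0.74 (SE 0.145, interval -1.09 to -0.40), 1.67-fold by the means (limma adjusted p = 0.546, unadjusted p = 0.0013). By unadjusted p, Psmb9 ranked 43 and Psmb8 ranked 44 of the 18193 genes, and only 0.445% of all genes had a more negative difference than Psmb8 and 0.632% a more negative one than Psmb9. EKO replicate 3 was the lowest and WT replicate 1 the highest array for both genes.

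Psmb10, the subunit with trypsin-like activity, showed a smaller difference. Its values were 8.67, 8.42 and 8.23 in WT and 8.20, 8.11 and 8.17 in EKO replicates, so that WT replicate 3 and EKO replicate 1 lay only 0.03 apart. The difference was -0.28 (SE 0.123, interval -0.57 to 0.0065, limma adjusted p = 0.704), and without WT replicate 1 it shrank to -0.17. The WT tumours varied more for this gene (SD 0.221) than the EKO tumours (SD 0.0462).

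Among the constitutive subunits, Psmb5 and Psmb6 had nearly the same mean in both groups. Psmb5, replaced by Psmb8 in the immunoproteasome, read 11.63, 11.48 and 11.57 in WT and 11.51, 11.47 and 11.47 in EKO replicates. The groups overlapped, and the difference of -0.08 (SE 0.0822) had an interval from -0.27 to 0.12 (limma adjusted p = 0.869). It was -0.04 without WT replicate 1 and -0.12 without WT replicate 2. Psmb6, replaced by Psmb9, read 11.54, 11.42 and 11.48 in WT and 11.53, 11.37 and 11.48 in EKO replicates. Its difference was -0.02 (SE 0.0859, interval -0.22 to 0.18, limma adjusted p = 0.972), and its sign turned to 0.01 without WT replicate 1 and to 0.02 without EKO replicate 2. The intervals of Psmb8 and Psmb9 lie wholly below those of Psmb5 and Psmb6.

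Psmb7, replaced by Psmb10, did not follow the other constitutive subunits. It read 8.46, 8.45 and 8.15 in WT and 8.06, 7.93 and 8.21 in EKO replicates, the highest EKO value exceeding the lowest WT value. Its difference of -0.28 (SE 0.122, interval -0.57 to 0.0053, limma adjusted p = 0.704) was the same as that of Psmb10 to 2 decimals.

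**Figure D1:**
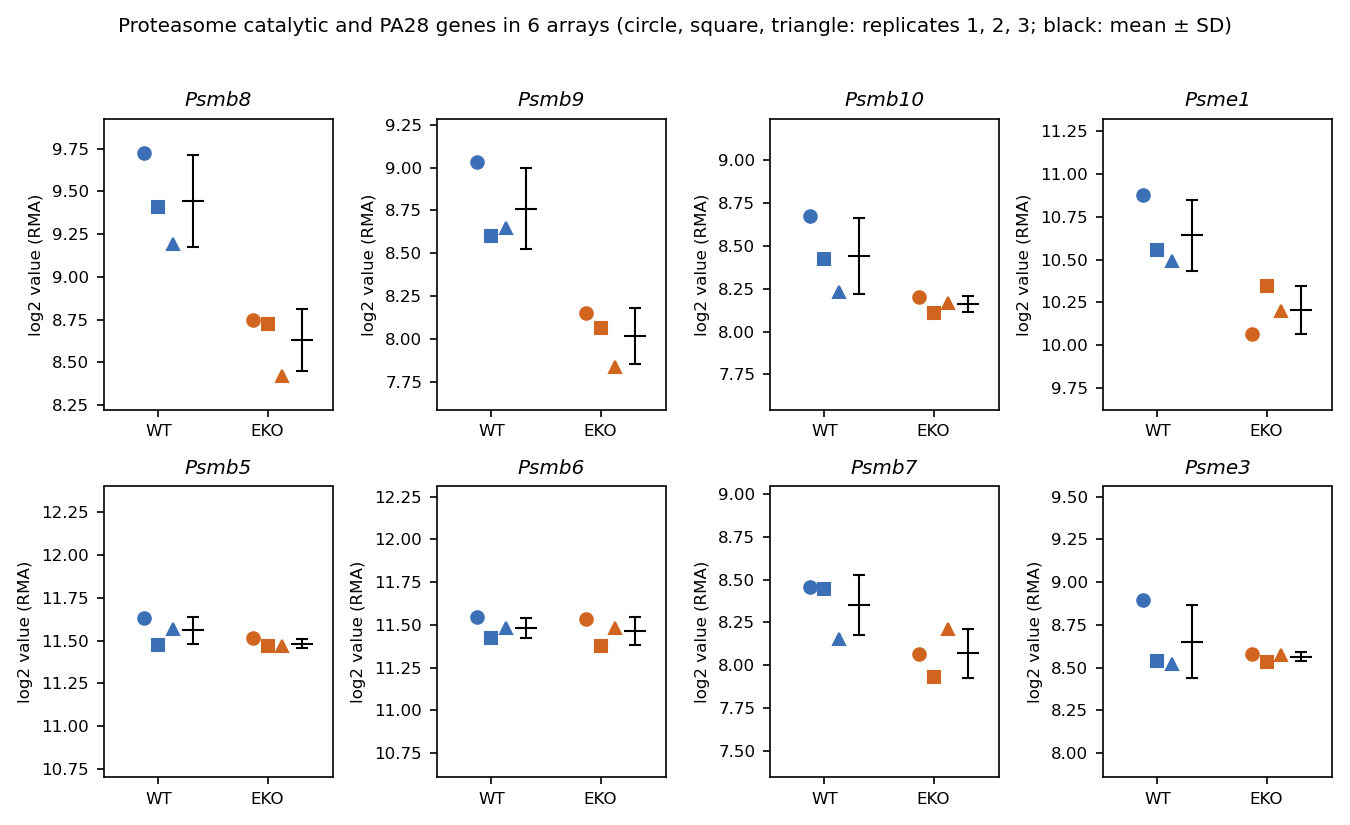
Log2 values of the 8 measured members in the 6 arrays, with WT in blue and EKO in orange, replicates 1, 2 and 3 as circle, square and triangle, and the mean ± SD of each group (n = 3) in black; every panel spans the same range of log2 units. Psmb8 and Psmb9 stand apart by 0.44 and 0.45 between the groups, Psme1 by 0.15 and Psmb10 by 0.03, and the groups overlap for Psmb5, Psmb6, Psmb7 and Psme3.

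Of the PA28 genes, Psme1 had a lower mean in EKO tumours and Psme3 did not stand apart. Psme1 read 10.88, 10.55 and 10.49 in WT and 10.07, 10.35 and 10.20 in EKO replicates. The groups did not overlap, with a gap of 0.15 and a difference of -0.44 (SE 0.131, interval -0.75 to -0.13, limma adjusted p = 0.621). Here EKO replicate 1 and not EKO replicate 3 was lowest, unlike for Psmb8 and Psmb9. Psme3 read 8.90, 8.54 and 8.52 in WT and 8.58, 8.53 and 8.58 in EKO replicates, a difference of -0.09 (SE 0.119, interval -0.37 to 0.19, limma adjusted p = 0.893). That difference rested on WT replicate 1, and was 0.03 without it.

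Of the 8 measured members, 0 passed the threshold, where 0.00550% of all genes did (1 gene, by limma). At an unadjusted p under 0.05, 3 of them, Psmb8, Psmb9 and Psme1, were lower in EKO, where 3.70% of all genes were. In 4 of the 8, Psmb8, Psmb9, Psmb10 and Psme1, every EKO value lay below every WT value, as it did for 6.19% of all genes (12.0% stood apart in one direction or the other). A difference of -0.5 or lower without overlap was found in 2 of the 8, Psmb8 and Psmb9, and in 0.940% of all genes. All 8 had lower means in EKO, and 9088 of the 18193 genes did. The intervals are for single genes and are not adjusted for the number of genes.

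Some members had further probe sets with their symbol alone. A dimmer Psmb8 probe set lay below the lower quartile of its array in all 6 arrays, from 2.95 to 3.68, and had a difference of -0.23 with overlapping groups. Averaging both Psmb8 probe sets gave a difference of -0.52. The other Psme3 probe sets lay below the array median in all 6 arrays and had differences of 0.08 and -0.13, with overlap.

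The log2 ratio of each immunoproteasome subunit to the constitutive subunit it replaces was then taken within each array. Its size has no meaning as a ratio of transcripts, since the probe sets differ, but its shift between arrays leaves out whatever moves both genes alike in an array. Measured from the WT mean, the ratio of Psmb8 to Psmb5 was 0.21, 0.05 and -0.26 in the WT replicates and -0.65, -0.63 and -0.93 in the EKO replicates. The ratio of Psmb9 to Psmb6 was 0.21, -0.10 and -0.11 in WT and -0.66, -0.59 and -0.92 in EKO replicates. Both ratios separated the groups without overlap, by 0.37 and 0.48, and EKO replicate 3 was lowest in each.

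The mean shifts were -0.74 for Psmb8 over Psmb5 (SD 0.239 in WT and 0.17 in EKO) and -0.72 for Psmb9 over Psmb6 (SD 0.183 and 0.177). In linear terms the WT ratios were 1.66-fold and 1.65-fold those of EKO tumours. The ratio of Psmb10 to Psmb7 showed no such shift. It was 0.12, -0.12 and -0.01 in WT and 0.05, 0.09 and -0.14 in EKO replicates, with a mean shift of 0.00059 (SD 0.12 in each group). The mean of the 3 ratios shifted by -0.49, and it stood apart by 0.25, carried by the pairs of Psmb8 and Psmb9. These shifts are given without a test because the genes were chosen together, and an exact permutation test of 3 against 3 arrays cannot go below p = 0.1.

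**Figure D2:**
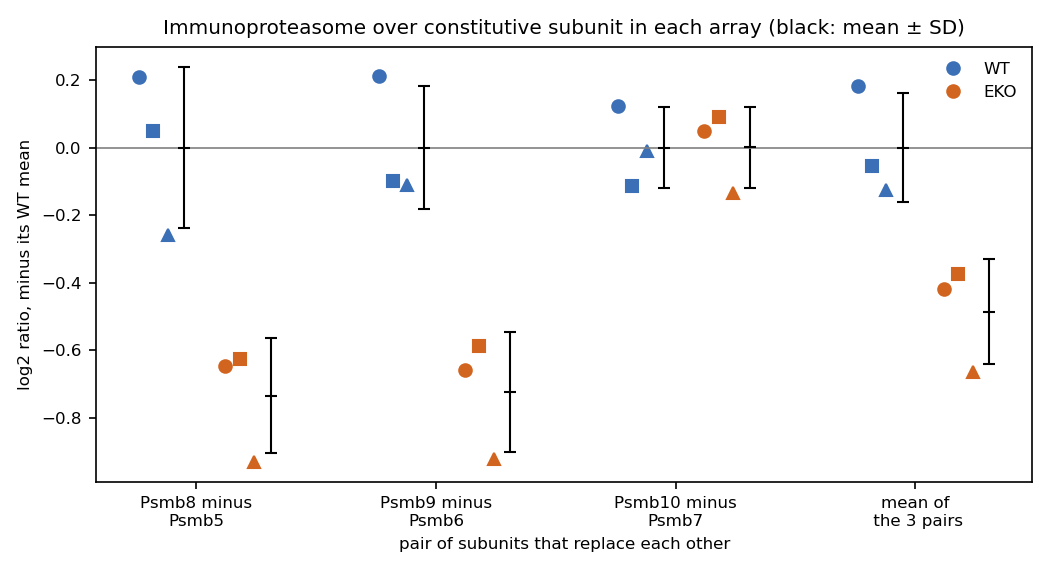
Log2 ratio of each immunoproteasome subunit to the constitutive subunit it replaces, and the mean of the 3 ratios, in each array after subtraction of the WT mean (WT blue, EKO orange, symbols for replicates 1 to 3 as circle, square and triangle, black bars mean ± SD, n = 3). The EKO values of the first pairs lie between -0.59 and -0.93 and below all WT values, while those of Psmb10 over Psmb7 lie between -0.14 and 0.09 and overlap the WT values of -0.12 to 0.12.

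The rest of the proteasome differed little between the groups. Of 31 other subunits of the 20S core and the 19S regulator, the cap that recognises and unfolds tagged proteins, 22 had lower and 9 higher means in EKO. Their differences ran from -0.17 for Psma1, a structural subunit of the core, to 0.10 for the ATPase Psmc4, with a median of -0.06. None of the 31 reached the difference of Psmb10, 0 passed the threshold by limma, and none had an unadjusted p under 0.05. In 4 of them, Psma1, Psmb4, Psmc3 and Psmd5, every EKO value lay below every WT value, beside 6.19% of all genes. The median over all 18193 genes was 0.00014.

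By role, the 7 alpha subunits, which form the outer rings of the core and its gate, had a median of -0.10, from Psma1 (-0.17) and Psma4 (-0.16) to Psma2 (-0.04) and Psma6 (0.03). The 4 non-catalytic beta subunits had a median of -0.09, with Psmb2 at -0.11, Psmb4 at -0.11, Psmb1 at -0.08 and Psmb3 at 0.02. The 6 ATPases of the 19S regulator had a median of -0.02, which turned to 0.01 with a mean over probe sets, with Psmc3 at -0.11 and Psmc6 at -0.06 on the lower side and Psmc5 at 0.04 and Psmc4 at 0.10 on the higher. The 14 analysed non-ATPases had a median of -0.05, from Psmd5 (-0.13) and Psmd7 (-0.12) to Psmd2 (0.06) and Psmd3 (0.07). None of these lists held a gene past the threshold. With 1 array left out, the median of the alpha subunits ran from -0.14 (without WT replicate 3) to -0.05 (without EKO replicate 2) and that of the non-catalytic beta subunits from -0.12 (without EKO replicate 1) to -0.05 (without EKO replicate 2). That of the ATPases ran from -0.06 (without WT replicate 2) to 0.01 (without WT replicate 3) and that of the non-ATPases from -0.07 (without EKO replicate 1) to -0.02 (without WT replicate 3).

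Assembly factors lay somewhat lower, with 4 of 5 analysed genes lower and a median of -0.11, which was -0.06 without EKO replicate 2. Psmg2, a chaperone of the alpha ring, had a difference of -0.29 (SE 0.0896, limma adjusted p = 0.625) and Pomp, the maturation protein that works on both kinds of proteasome, one of -0.21 (SE 0.0867, limma adjusted p = 0.698). Together with Psmg1 (-0.11) they had every EKO value below every WT value, beside 6.19% of all genes, while Psmg4 (-0.05) and Psmg3 (0.07) overlapped. The activator Psme4 was at -0.01 and the inhibitor Psmf1 at 0.09, and the sign of their median of 0.04 turned to -0.04 with a mean over probe sets. Thymus-restricted Psmb11 (0.18) and testis-restricted Psma8 (-0.11) had values below the array median in all 6 arrays. Of the transcription factors of proteasome genes, Nfe2l1 was at -0.17 and Nfe2l2, the factor of the oxidative stress response, at 0.80 (SE 0.286, limma adjusted p = 0.65), with EKO replicate 2 (10.62) below the highest WT value (10.63).

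**Figure D3:**
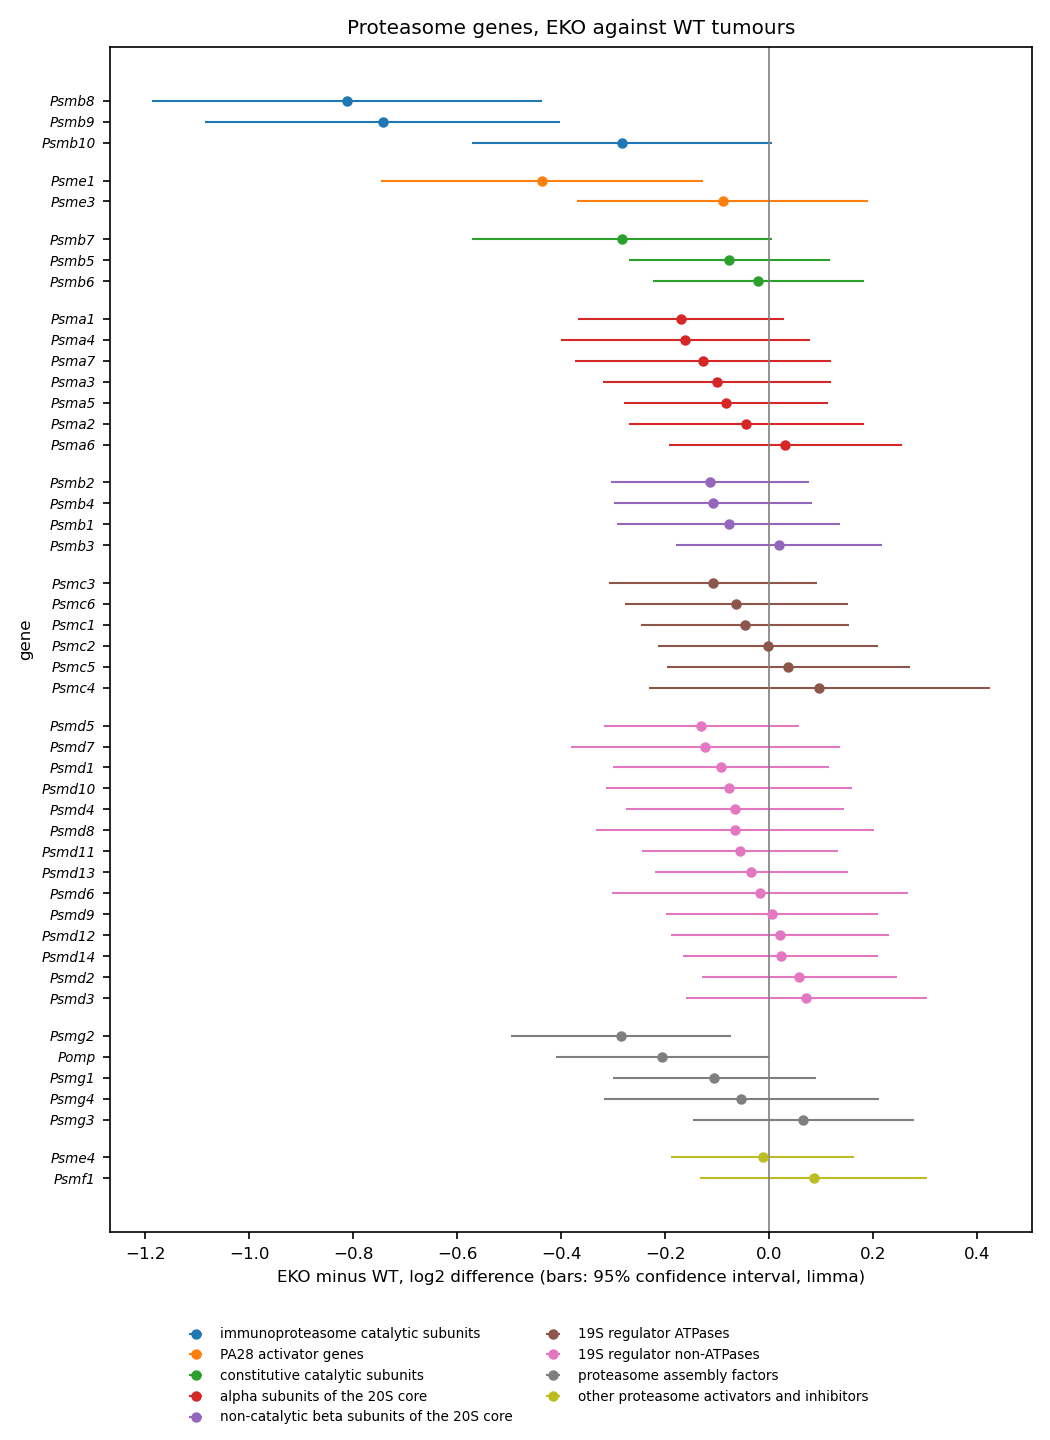
EKO minus WT difference on the log2 scale for the measured proteasome genes, grouped by role in colour, each point a gene and each bar its 95% confidence interval from limma, not adjusted for the number of genes. Psmb8 (-0.81) and Psmb9 (-0.74) lie to the left of the 31 other core and regulator subunits, which run from -0.17 to 0.10, and Psme1 lies at -0.44.

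Interferon gamma binds the receptor chains Ifngr1 and Ifngr2, signals through Jak1 and Jak2 and induces Irf1, a transcription factor of immunoproteasome genes. All 11 analysed genes of this list had lower means in EKO, with a median of -0.26, but 0 passed the threshold, and the median was -0.05 without WT replicate 1 and -0.41 without WT replicate 3. Ifngr2 had the largest difference of the list: it read 7.62, 7.37 and 7.26 in WT and 6.55, 6.90 and 6.83 in EKO replicates (difference -0.66, SE 0.135, limma adjusted p = 0.546). Ifngr1 (-0.35, SE 0.134) and Irf1 (-0.29, SE 0.107) also had no overlap (limma adjusted p = 0.662 for each). Every EKO value thus lay below every WT value in 3 of the 11 genes, beside 6.19% of all genes. The ligand Ifng, at -0.04, lay below the lower quartile of its array in all 6 arrays. Of the others, Irf8 was at -0.37, Jak1 at -0.28, Socs1 at -0.26, Jak2 at -0.12, Socs3 at -0.11, Irf2 at -0.01 and Nlrc5, the activator of MHC class I genes, at -0.08, all with overlap.

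Genes of interferon alpha and beta signalling had a median of -0.16 over 8 genes, 6 of them lower, which was -0.09 without WT replicate 1. Ifnar2, a chain of their receptor, had a difference of -0.38 (SE 0.105, limma adjusted p = 0.621). In this 1 of the 8 genes every EKO value lay below every WT value, beside 6.19% of all genes. Irf9, a partner of the STAT factors, had a difference of -0.31 with overlap. On the other side stood the kinase Tyk2 (0.15) and Irf3 (0.04). In this list too 0 genes passed.

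The genes that handle the peptides after the proteasome, which cross with those of MHC class I, had lower means in 8 of 9 cases. Their median was -0.30, with 0 past the threshold, and it was -0.42 without EKO replicate 2 and -0.20 without EKO replicate 3. Tap1, which shares its upstream stretch with Psmb9, read 8.71, 8.66 and 8.57 in WT and 8.07, 8.59 and 8.07 in EKO replicates (difference -0.40, SE 0.153, limma adjusted p = 0.662). EKO replicate 2 thus lay within the WT range for Tap1, while for Psmb9 it lay below all WT values. Tap2, the gene after Psmb8, was at -0.24, also with overlap. B2m, the light chain of MHC class I, had a difference of -0.60 (SE 0.119, limma adjusted p = 0.546), Erap1, which trims peptides, -0.54, and Tapbpl -0.36. These 3 of 9 genes had every EKO value below every WT value, beside 6.19% of all genes. The loading factors Tapbp (-0.30), Canx (-0.17) and Pdia3 (-0.06) overlapped, and the chaperone Calr (0.17) was higher in every EKO array, as 5.78% of all genes were.

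**Figure D4:**
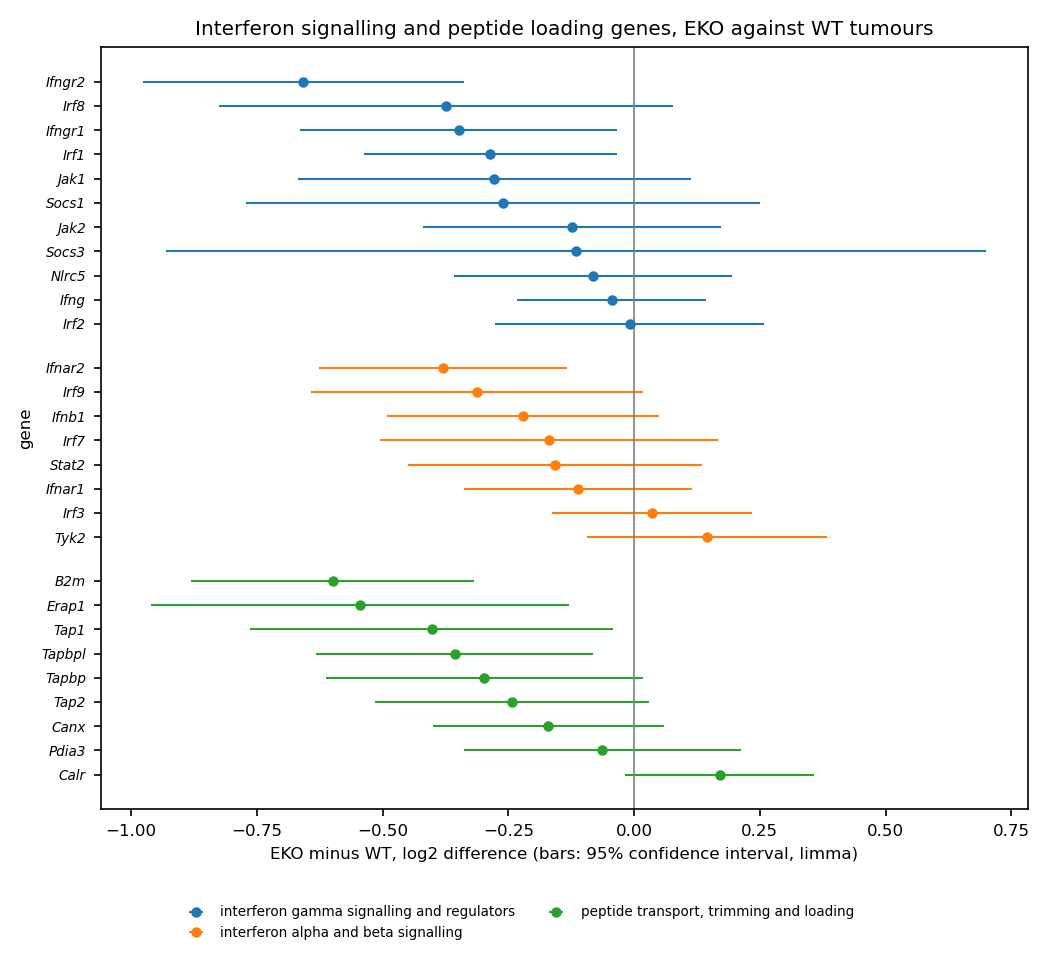
EKO minus WT difference on the log2 scale for genes of interferon gamma signalling, interferon alpha and beta signalling and peptide handling, each point a gene and each bar its 95% confidence interval from limma, not adjusted for the number of genes. Ifngr2 (-0.66), B2m (-0.60) and Erap1 (-0.54) lie farthest to the left, and Calr (0.17) and Tyk2 (0.15) farthest to the right.

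Leukocytes carry immunoproteasomes without stimulation, so marker lists of other cells were set beside the members by array. General leukocyte markers, 5 of 6 with lower EKO means, had a mean log2 value of 8.49 to 8.65 in WT and 8.18 to 8.66 in EKO arrays. EKO replicate 1 (8.66) and WT replicate 1 (8.65) had the highest leukocyte levels of the 6 arrays and were nearly equal. The Psmb8 and Psmb9 values of EKO replicate 1 lay below all WT values. EKO replicate 3, the lowest array for both genes, had the lowest leukocyte level (8.18). Macrophage and monocyte markers had lower means in 10 of 11 cases and ranged from 7.62 to 8.08 in WT and from 7.15 to 7.74 in EKO arrays, led by Mrc1 (-1.04) and Cd163 (-0.86). In 4 of 11, Mrc1, C1qa (-0.59), C1qb (-0.67) and C1qc (-0.65), every EKO value lay below every WT value, beside 6.19% of all genes. Cd163 overlapped, and 0 of the list passed the threshold. Among EKO arrays, replicate 3 had the highest macrophage level (7.74) and replicate 2 the lowest (7.15).

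T and NK cell markers, 7 of 9 lower, ranged from 5.78 to 6.03 in WT and from 5.71 to 5.76 in EKO arrays. These levels stood apart only narrowly, and Cd3g carried the separation, at 6.74 in WT replicate 3 and 6.37 in EKO replicate 1. Cd3g itself overlapped, at 6.83 in EKO replicate 2. In 1 of the 9 genes, Nkg7 (-0.27), every EKO value lay below every WT value, beside 6.19% of all genes. By difference, Cd3g was at -0.42 and Klrd1 at -0.39, and Ncr1 lay below the lower quartile throughout. Dendritic and Langerhans cell markers, 7 of 8 lower, ranged from 6.34 to 6.57 in WT and from 6.17 to 6.33 in EKO arrays, also narrowly apart. Epcam, which epithelial cells carry as well, was at 12.01 in WT replicate 3 and 11.48 in EKO replicate 3. Cd209a was at 6.32 and 5.81 in these arrays, so more than 1 gene added to the gap. Epcam overlapped between the groups. In 1 of the 8 genes, Cd209a, every EKO value lay below every WT value, beside 6.19% of all genes. By difference, Cd209a was at -0.33 and Epcam at -0.30, and Xcr1 lay below the lower quartile throughout. B and plasma cell markers ranged from 4.49 to 4.55 in WT and from 4.59 to 4.75 in EKO arrays, 2 of 5 being lower. Jchain, at 0.69, lay below the lower quartile in every WT array, so its difference arose near the floor. Neutrophil markers ranged from 9.20 to 9.38 in WT and from 9.28 to 9.38 in EKO arrays, 3 of 5 being lower. The part of these cells in the differences of the members was not tested.

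Other tissue moved with single arrays. Skeletal muscle markers, all 7 lower by their means, had a level of 9.56 in WT replicate 1, which was also the highest array for each of the 8 measured members, of 7.87 and 6.14 in the other WT arrays and of 6.27 to 7.51 in EKO arrays. Its part in the differences was not tested. Fibroblast markers, 5 of 7 lower, ranged from 10.84 to 11.62 in WT and from 10.83 to 11.49 in EKO arrays, and endothelial markers, 4 of 6 lower, from 6.53 to 7.20 and from 6.59 to 6.85. Keratinocyte markers had lower means in 3 of 10 cases. Without WT replicate 1 the differences of Psmb8 and Psmb9 were -0.67 and -0.61.

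**Figure D5:**
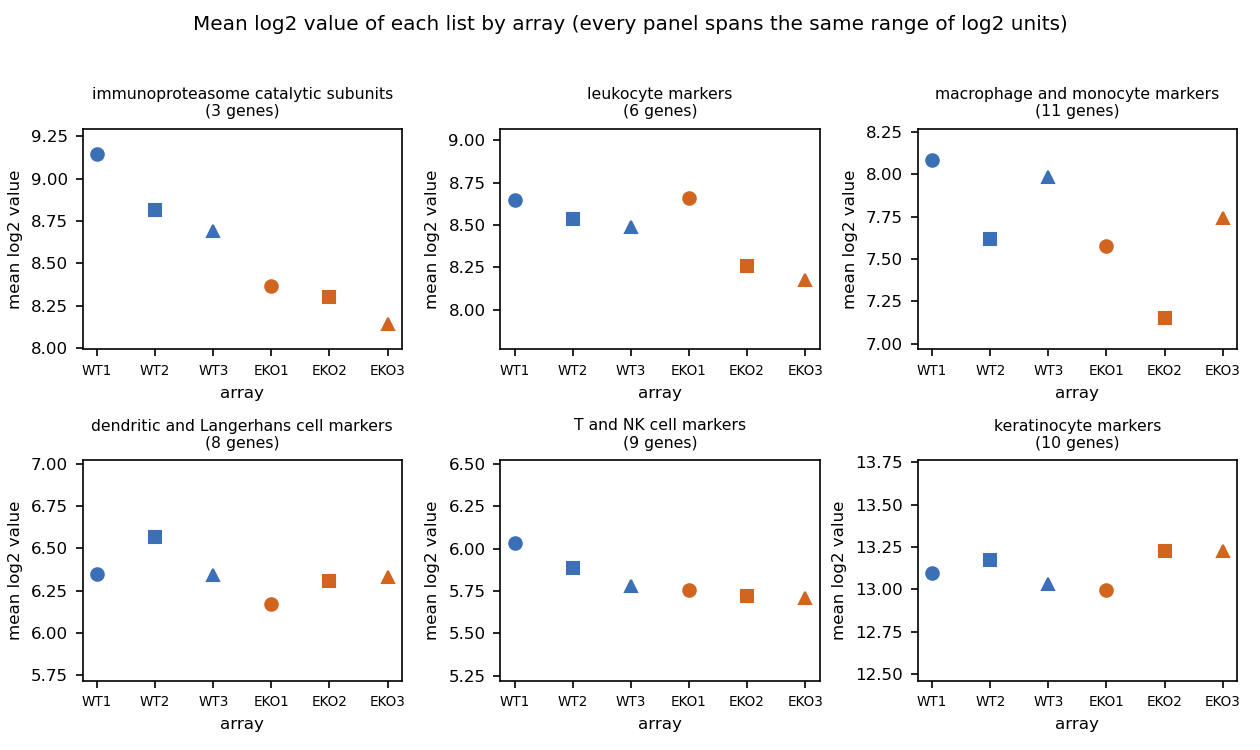
Mean log2 value in each array of the immunoproteasome catalytic subunits and of markers of leukocytes, macrophages and monocytes, dendritic and Langerhans cells, T and NK cells, and keratinocytes (WT blue, EKO orange, replicates 1 to 3 as circle, square and triangle; every panel spans the same range). The groups do not overlap in the panel of the immunoproteasome (8.69 to 9.14 in WT, 8.14 to 8.37 in EKO). They stand apart only narrowly in those of T and NK cells (5.78 to 6.03, 5.71 to 5.76) and of dendritic and Langerhans cells (6.34 to 6.57, 6.17 to 6.33). They overlap in those of leukocytes, macrophages and keratinocytes.

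The genes with the pattern nearest to the immunoproteasome subunits were found from the root mean square distance over the 6 arrays between a gene, centred on its own mean, and the mean of the centred Psmb8, Psmb9 and Psmb10. That mean profile was 0.57, 0.24 and 0.12 in the WT and -0.21, -0.28 and -0.43 in the EKO replicates. The nearest gene was Cd48, a surface protein of leukocytes (distance 0.0741), then Cldn5, a claudin of endothelial junctions (0.0865), Gm13889 (0.087), Cysltr1, a leukotriene receptor (0.0906), Hoxd9 (0.103), Tuba8 (0.103), Zfp39 (0.105), Car4 (0.108), Hfe, an MHC class I-like protein of iron uptake (0.109), and Nfatc1 (0.109). The median distance of all other genes was 0.362, and a gene with no variation would lie at 0.342. Psmb9 itself lay at 0.0862, Psmb8 at 0.113, Psme1 at 0.149, Psmb10 at 0.181 and Tap1 at 0.226. Psmb8 and Psmb10 were thus farther from the profile they enter than each of the 10 nearest genes. All 10 had every EKO value below every WT value, with differences from -0.71 (Car4) to -0.46 (Hoxd9). The choice by distance largely sets this, because the profile itself separates the groups.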

How the data were processed

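The authors deposited log2 values after RMA, and the submitters' processing notes name Partek 6.6 beside it. RMA subtracts a modelled background, makes the arrays' distributions alike by quantiles and summarises each probe set, which compresses differences near the floor. No scan date, batch or genome build is given in the sources used here, and none was tested. Groups and replicate numbers are those of the sample titles, where replicates are called biological. Of 45101 probe sets, 64 controls were left out, 34945 carried 1 gene symbol, 932 several and 9160 none here.

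EKO was compared with WT over 18193 genes by limma 3.58.1 in R 4.3.3 (lmFit, eBayes, two-sided, Benjamini-Hochberg over all genes, threshold 0.05), with no filter on low values. Dim means below the array's lower quartile in all 6 arrays. The procedure was tested on simulated data. Members and lists were chosen with earlier results of these data known. Named were all members, Fabp5, all genes of the interferon gamma and peptide lists, the 2 most positive and the 2 most negative differences of each other pathway list (all where it has 4 genes or fewer), the 10 nearest genes and up to 2 per marker list. Psmg1, Ncr1, Xcr1, C1qa, C1qb, C1qc, Nkg7 and the notes on overlap in marker lists were added after their values were seen. Precision is limited by 3 arrays per group.

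Alternatives left out each array in turn, used the replicate number as a block, kept only genes in the upper 50% of means, averaged a gene's probe sets, repeated the quantile step, centred arrays on their medians, fitted limma with array weights, or let its variances follow intensity robustly. Promoter windows were searched in Python 3.11.15.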

Additional observations from a re-analysis of the deposited data

How the results depend on the processing

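The number of genes past the threshold was 1 with all 6 arrays and ran from 1 to 42 with 1 array left out, being 42 (38 higher, 4 lower) without EKO replicate 2 and 2 without WT replicate 2. No member passed under any alternative, and the lowest adjusted p was 0.138 for Psmb8 and 0.235 for Psmb9, with a highest of 0.998 for each. Of 104 values of single members under the alternatives, 101 kept their sign and their side of the threshold. The others were Psmb6, which ran from -0.056 to 0.024 with 1 array left out (0.01 without WT replicate 1, 0.024 without EKO replicate 2), and Psme3, which ran from -0.16 to 0.034 (0.034 without WT replicate 1). The ratio of Psmb8 to Psmb5 shifted by -0.44 with a mean over probe sets, which adds a dim Psmb8 probe set, and otherwise by -0.63 to -0.87 with 1 array left out. The other ratios moved by less than the spread between replicates, and 84 of 88 list medians did. Samples with the same replicate number did not deviate together (r of -0.07, -0.09 and -0.34 across genes), and with a replicate block 1 gene passed and Psmb8 had an adjusted p of 0.542. Signals near the floor, as of Ifng and the dim Psmb8 probe set, limit what can be read there.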

Other observations

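The probe set annotated with both Psme2 and Psme2b cannot be assigned to either gene. Its log2 values were 10.79 in EKO replicate 1, 11.19 in EKO replicate 2 and 10.97 in EKO replicate 3, against 11.71, 11.51 and 11.27 in the WT replicates in the same order. The groups did not overlap, with a gap of 0.08 and a difference of -0.51 (SE 0.147), and the probe set did not pass over all probe sets (limma adjusted p = 0.628).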
